A study of Rattus norvegicus with 4 samples.

Results

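The miR-101 family of the rat consists of rno-miR-101a and rno-miR-101b (miR-101a and miR-101b below), and the arrays of this series carried a probe for the 5p and the 3p arm of each. The 4 probes were chosen by name, as every rat probe called miR-101a or miR-101b with an arm suffix, out of 761 rat miRNA probes. Their levels were compared between liver sinusoidal endothelial cells (LSECs), the fenestrated cells that line the liver's capillaries, and hepatocytes, its parenchymal cells. Both cell types were isolated from livers of male Sprague-Dawley rats aged 10 weeks, without treatment. There were 2 LSEC samples and 2 hepatocyte samples, each hybridised with Cy5-labelled total RNA to its own single-colour array. The labels name no separate animals, so p-values measure only the spread between these samples, which may be technical.

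MicroRNAs are short RNAs that guide Argonaute proteins to messenger RNAs, mainly through pairing of the seed, the bases 2 to 8 of the mature strand. A hairpin precursor yields a 5p and a 3p strand, of which usually a single strand accumulates. In miR-101 the 3p strand is the well-studied guide. It is known for repressing the histone methyltransferase EZH2 and the survival factor MCL1 in human cells, and it is described as reduced in human liver cancer.

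The mature sequences are shown because the results turn on near-identical strands. They come from RefSeq on build GRCr8, 5′ to 3′, with the seed in capitals.
miR-101a-3p: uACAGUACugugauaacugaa
miR-101b-3p: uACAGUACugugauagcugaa
miR-101a-5p: uCAGUUAUcacagugcugaugc
miR-101b-5p: uCGGUUAUcaugguaccgaugc
The 3p strands have 21 bases and differ at 1 of them, A16G, with the base of miR-101a first and positions counted from the 5′ end. That base lies outside the seed, so both 3p strands share the seed. The 5p strands have 22 bases and differ at 5 (A3G, C11U, A12G, G15A and U17C), the first of them within the seed. Among 693 mature rat names searched, no other miRNA had the seed of the 3p strands, and miR-144-3p shared bases 2 to 7 with them.

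The precursors are printed with their mature arms in capitals, to show that the same layout is carried by different loci.
Mir101a: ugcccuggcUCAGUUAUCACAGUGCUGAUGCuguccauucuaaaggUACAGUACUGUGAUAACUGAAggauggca
Mir101-2, the source of miR-101b: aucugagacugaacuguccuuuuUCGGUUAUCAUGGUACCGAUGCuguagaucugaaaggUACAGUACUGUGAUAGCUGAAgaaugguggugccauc
In both hairpins 15 bases separate the arms. Mir101a lies at chr5:121081683-121081757 on the minus strand, within the span of a long noncoding RNA gene, LOC120102934. Mir101-2 lies at chr1:236273922-236274018 on the plus strand, within the span of Rcl1, which encodes a protein of ribosomal RNA processing. Exon boundaries were not used here. The surroundings resemble each other in gene content. Ak4, an adenylate kinase gene, and Jak1, a cytokine receptor kinase gene, lie 72808 and 77476 bases from Mir101a. Their relatives Ak3 and Jak2 lie 95233 and 134887 bases from Mir101-2.

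Each array held 3200 spots, with 1 spot for each miRNA. The detection limit of an array was 2 SD above its mean blank spot, and the test took the 652 miRNAs that passed it on both LSEC arrays or on both hepatocyte arrays. Of these, 241 (37%) were called in limma at a Benjamini-Hochberg adjusted p under 0.05, 121 higher in LSECs and 120 higher in hepatocytes. With cyclic loess this split was 103 and 112. Other scalings between arrays moved it to 150 and 27 without normalization and to 221 and 108 with the median. It was 137 and 308 with the 75th percentile and 435 and 21 with the spike controls. In the authors' values, where only 482 miRNAs were tested, it was 196 and 111. The cell labels were checked with miR-126a-3p, an endothelial miRNA, and miR-122-5p, the main hepatocyte miRNA. The spot median of miR-126a-3p was 43584 and 44736 units above the blanks in LSECs, against 19.3 and 52.1 units in hepatocytes. That of miR-122-5p was 108.6 and 77.9 units above the blanks in LSECs, against 21379 and 37971 units in hepatocytes.

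The strand miR-101b-3p was far lower in LSECs than in hepatocytes. Its spot median stood 46.7 and 65.8 units above the blanks on the LSEC arrays, against 675.2 and 1062.5 units on the hepatocyte arrays. In the authors' scaled values its level was 72.5 and 92.8 in LSECs, against 1625.5 and 1659.4 in hepatocytes. Both hepatocyte arrays were well above both LSEC arrays, and all 4 arrays detected the strand. Normalized log2 values averaged 6.59 ± 0.099 in LSECs and 10.69 ± 0.044 in hepatocytes (SD, n = 2 each). The fitted LSEC minus hepatocyte difference was -4.09 ± 0.066 (standard error), a 17.1-fold lower level in LSECs, with a 95% interval of -4.28 to -3.91 and a limma adjusted p = 2.58e-05. These differences are on a log2(intensity + 50) scale, which understates changes of dim probes. The size also depended on the scaling between arrays, from -4.32 in the authors' values to -2.34 with the spike controls. In the authors' values, which lack the added 50, the ratio of means was 19.9.

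Among the 652 miRNAs tested, miR-101b-3p ranked 6 when ordered from the most hepatocyte-sided difference. Just above it in that order was miR-148a-3p at -4.21, which lay within the interval of miR-101b-3p, and just below it was miR-31a-5p at -3.89, which lay just outside. On the hepatocyte arrays it was the 24th and 25th brightest miRNA spot, and on the LSEC arrays the 194th and 175th. In LSECs its level was 5.03% of the hepatocyte level in the authors' values, whereas that of miR-122-5p was 0.252%. The share of the LSEC signal that came from other cells was not tested.

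**Figure D1:**
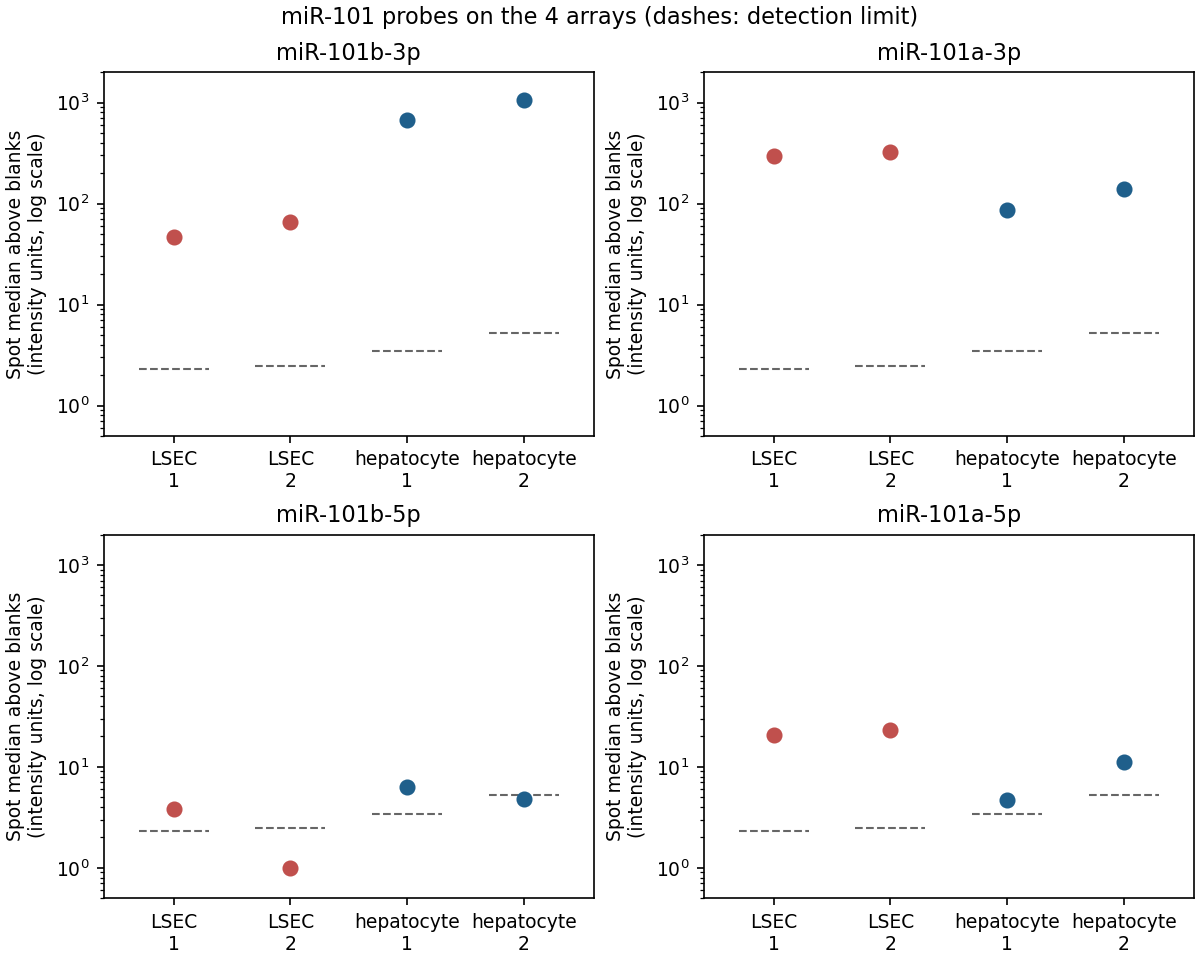
Spot median above the mean of the blank spots, in intensity units on a log axis, for each miR-101 probe on the 2 LSEC arrays (red) and the 2 hepatocyte arrays (blue), with each array's detection limit as a dashed line. For miR-101b-3p the LSEC points lie at 46.7 and 65.8 and the hepatocyte points at 675.2 and 1062.5, and for miR-101a-3p the LSEC points are the higher ones.

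The paralogous strand miR-101a-3p did not share this pattern. Its spot median was 293.5 and 323.0 units above the blanks on the LSEC arrays, against 86.6 and 140.6 units on the hepatocyte arrays. The authors' scaled values gave 456.1 and 455.6 in LSECs, against 208.6 and 219.6 in hepatocytes. Both LSEC arrays thus exceeded both hepatocyte arrays, the reverse of miR-101b-3p. In order of brightness within each array, however, the probe kept nearly the same place, 85th and 82nd on the LSEC arrays and 87th and 86th on the hepatocyte arrays. Quantile normalization, which goes by that order, gave 8.12 ± 0.096 in LSECs and 7.97 ± 0.025 in hepatocytes (log2, SD, n = 2 each). The fitted difference was 0.15 ± 0.062, with a 95% interval of -0.024 to 0.32, and was not called (limma adjusted p = 0.144).

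The result for miR-101a-3p depended on the scaling between arrays. It was called higher in LSECs without normalization, at 1.11 (limma adjusted p = 0.000944), and with median scaling, at 1.03 (adjusted p = 6.92e-05). It was also called with the 75th percentile, with the spike controls and in the authors' values, at 0.48 (adjusted p = 0.000561), 1.83 (adjusted p = 7.94e-06) and 1.09 (adjusted p = 0.00249). Those 3 scalings moved the median of the miRNAs tested to -0.15, 0.27 and 0.28, and relative to that median miR-101a-3p lay at 0.63, 1.56 and 0.82. The median in the authors' values covers only the 482 miRNAs with a value on all 4 arrays, against 652 miRNAs in the others, so it has an unlike base. Cyclic loess put the difference at -0.016 (adjusted p = 0.845). For miR-101b-3p the difference stayed on the hepatocyte side and was called in all 6 of these other settings, at -4.32 to -2.34. Relative to the median of the miRNAs tested in each setting it lay at -3.48 with the 75th percentile, -2.61 with the spike controls and -4.60 in the authors' values.

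**Figure D2:**
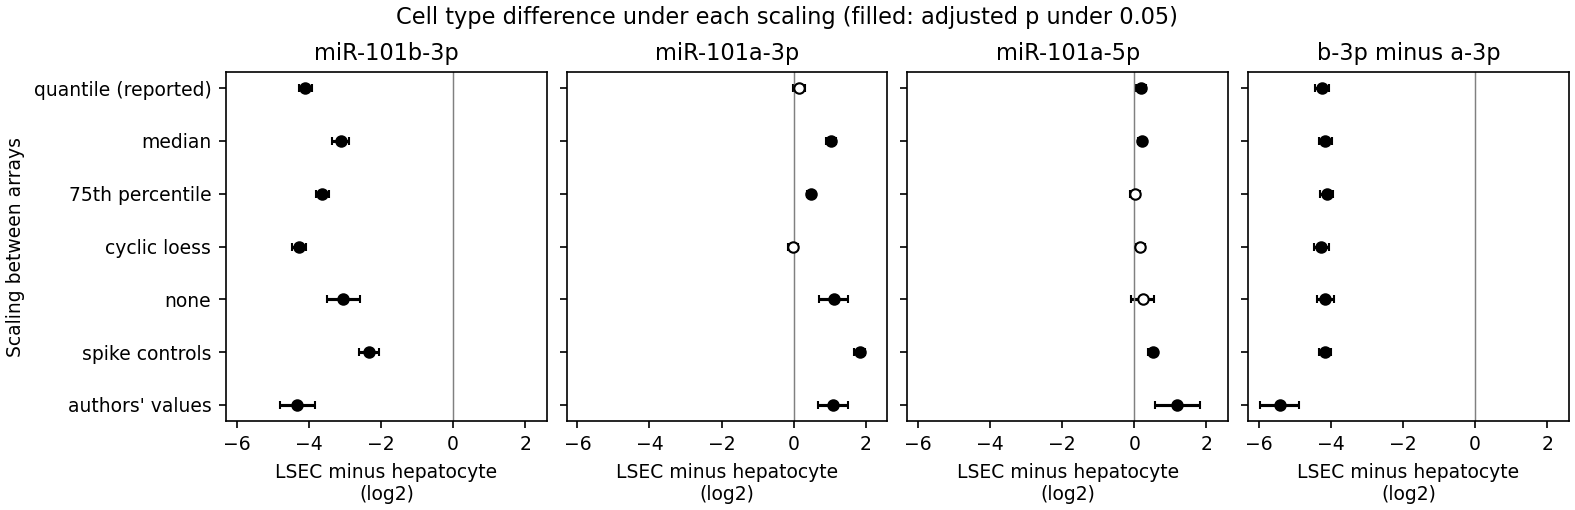
LSEC minus hepatocyte difference on the log2 scale (points, with 95% intervals) under quantile normalization and under other ways of scaling the arrays to each other. Filled points have an adjusted p under 0.05. The difference of miR-101b-3p runs from -4.32 to -2.34 and that of miR-101a-3p from -0.016 to 1.83, while miR-101b-3p minus miR-101a-3p stays between -5.41 and -4.11.

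The paralogs were set against each other within each array, where a scaling constant acts on both probes. The log2 value of miR-101b-3p minus that of miR-101a-3p was compared between cell types, among 58 pairs of an a and a b miRNA of the same number and arm. The difference of this contrast between LSECs and hepatocytes was -4.24 ± 0.080, with a 95% interval of -4.44 to -4.05 and a limma adjusted p = 7.67e-08. At the same threshold 21 of the 58 pairs (36.2%) were called. The contrast had the most negative value of the 58 pairs. The pair of miR-148b-3p and miR-148a-3p had a value of similar size and opposite sign, 4.30, and the others ran from -2.06 to 1.90. The contrast of the miR-101 strands was called in each of the 6 other settings of the scaling, and under every alternative tried except subtraction of the deposited background column.

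Bases were compared only in pairs whose mature strands have equal length. Among these, the miR-101 3p strands and 5 of the other tested pairs differ at 1 base only. Among those 5, 3 were called, and their contrasts ran from -1.38 for miR-27b-3p minus miR-27a-3p to 0.0060 for miR-196b-5p minus miR-196a-5p. Mature sequences of both members were at hand for 45 of the 58 pairs. In spot medians above the blanks, hepatocytes were brighter on the miR-101b-3p probe and LSECs on the miR-101a-3p probe. Under quantile normalization the miR-101a-3p difference was 0.15 and not called, and cyclic loess put it at -0.016. The probe sequences were not used here, and how far a probe takes up the RNA of the near-identical strand was not tested.

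**Figure D3:**
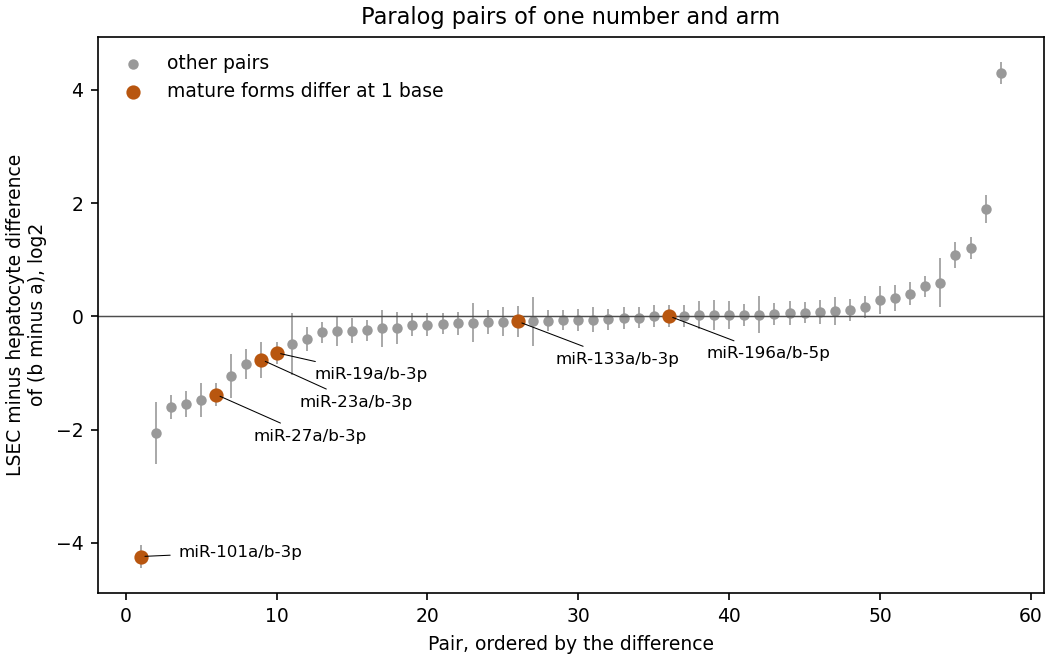
LSEC minus hepatocyte difference of the within-array contrast b minus a, on the log2 scale with 95% intervals, for 58 pairs of miRNAs of one number and arm, ordered by value. Orange points are the 6 pairs whose mature strands have equal length and differ at 1 base, and the miR-101 3p strands have the lowest value, -4.24.

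The 5p strands were dim. For miR-101a-5p the spot median was 20.5 and 22.9 units above the blanks on the LSEC arrays, against 4.7 and 11.2 units on the hepatocyte arrays. Its level in the authors' values was 31.9 and 32.3 in LSECs, against 11.3 and 17.5 in hepatocytes. The probe was detected on all 4 arrays, and both LSEC arrays were higher. The fitted difference was 0.19 ± 0.047, with a 95% interval of 0.056 to 0.32, and it was called higher in LSECs (limma adjusted p = 0.0465). The authors' values gave a larger difference of 1.19 (adjusted p = 0.00806), or 0.92 relative to the median of the 482 miRNAs tested there. Scaling by the spike controls gave 0.51 (adjusted p = 0.000473), or 0.23 relative to the median of the 652 miRNAs in that setting. Scaling by the 75th percentile gave 0.017 (adjusted p = 0.777), or 0.16 relative to the median of the 652 miRNAs under it. The call ended without LSEC array 1 (adjusted p = 0.254), LSEC array 2 (0.267) or hepatocyte array 1 (0.0603), and in 6 further alternatives.

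For miR-101b-5p the spot median was 3.9 and 0.99 units above the blanks on the LSEC arrays, against 6.3 and 4.8 units on the hepatocyte arrays. It passed the limit on 1 LSEC array and 1 hepatocyte array, and so was the member left out of the test. Fitted without a detection filter, its difference was -0.10 ± 0.067 (limma adjusted p = 0.335), a value that rests on signal at the detection limit. Of the 4 members, 3 were thus tested. Of those 3, 1 was called higher in LSECs and 1 higher in hepatocytes, where 18.6% and 18.4% of all tested miRNAs were called. LSEC and hepatocyte arrays were free of overlap for all 3, as they were for 71.3% of the miRNAs tested.

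**Figure D4:**
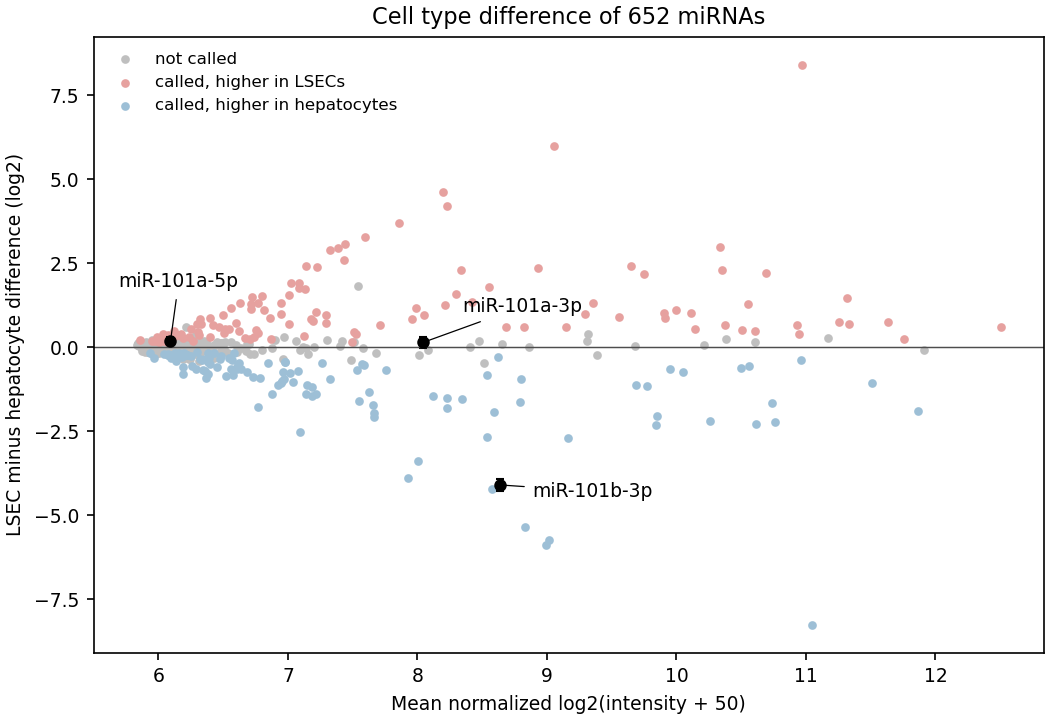
LSEC minus hepatocyte difference against the mean normalized log2(intensity + 50) for the 652 miRNAs tested, with called miRNAs in red (higher in LSECs) or blue (higher in hepatocytes). The 3 tested miR-101 strands are black with 95% intervals, miR-101b-3p at -4.09 and the arms of miR-101a at 0.15 and 0.19.

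Between the arms of miR-101a no difference in pattern was called. Within arrays, the 5p minus 3p contrast of miR-101a differed between LSECs and hepatocytes by 0.038 ± 0.082, with a 95% interval of -0.17 to 0.24 (limma adjusted p = 0.736). Over all 213 hairpins with both arms tested, 54.5% were called. Without normalization and under the median, 75th percentile and spike scalings the miR-101a contrast was called with the opposite sign, at -1.32 to -0.46. It kept its sign and was not called with cyclic loess, at 0.18 (limma adjusted p = 0.102). The same held in the authors' values, which lack the added 50, at 0.10 (limma adjusted p = 0.785 over 131 hairpins). The sign thus differed between settings. The 5p probe lay close to the added 50 units, where the log2 scale is compressed. Both signs occurred among settings that carry the added 50, and what set the sign was not tested. The arm contrast of miR-101b was left out, as its 5p strand was not detected on both arrays of either cell type. Fitted without a detection filter over 281 hairpins, it differed by 3.99 ± 0.097 (limma adjusted p = 1.87e-06), with a 5p signal at the detection limit. That value mostly restates the 3p difference of -4.09 with its sign flipped, so it cannot show a difference between the arms.

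Other miRNAs that share letters with the miR-101 seeds were examined next. The strands below are shown with the stretch shared with miR-101-3p in capitals.
miR-144-3p: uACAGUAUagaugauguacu
miR-199a-3p: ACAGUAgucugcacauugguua
The erythroid strand miR-144-3p, encoded on chromosome 10, holds the stretch at bases 2 to 7, as miR-101-3p does. It was 2.8 and 2.4 units above the blanks on the LSEC arrays, against -0.72 and 7.3 units on the hepatocyte arrays. It was detected on 1 array of each cell type and not tested. The mesenchymal strand miR-199a-3p, encoded on chromosome 13, holds the same letters shifted to bases 1 to 6, and so does not share the seed. It was 574.2 and 548.4 units above the blanks on the LSEC arrays, against 2.8 and 3.2 units on the hepatocyte arrays, where it was not well above background. Bases 2 to 7 of miR-101a-5p recur in miR-935, which is named here after its value was seen. Its fitted difference was -0.24 ± 0.047, called higher in hepatocytes under quantile normalization (limma adjusted p = 0.0259).

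By distance between probe-centred normalized values over the 4 arrays, the miRNAs nearest to miR-101b-3p among 481 candidates were miR-148a-3p, miR-31a-5p, miR-483-5p, miR-192-5p and miR-1188-3p. Their distances were 0.16, 0.25, 0.76, 1.25 and 1.41 log2 units, and their differences were -4.21, -3.89, -3.37, -5.34 and -2.69. Nearest to miR-101a-3p were miR-872-3p, miR-484, miR-3594-5p, miR-187-5p and miR-328b-3p, at 0.053 to 0.074 log2 units. With 4 arrays in 2 cell types, this measure mostly reflects the size of the cell type difference.

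Most marker miRNAs of the hepatocyte and endothelial lists moved with the comparison. The exceptions were miR-455-3p of the hepatocyte list (0.067, not called) and miR-221-3p of the endothelial list (-0.52, called higher in hepatocytes). Over all miRNAs tested, calls toward LSECs made up 18.6% and calls toward hepatocytes 18.4%. The marker counts are descriptions only, since miR-802-5p passed the detection filter through the hepatocyte arrays alone, and miR-322-5p, miR-222-3p, miR-146a-5p, miR-155-5p and miR-199a-3p through the LSEC arrays alone. Of 7 tested hepatocyte markers, 6 were called higher in hepatocytes and 0 in LSECs, with a median difference of -5.34, against 5.43e-05 over all miRNAs tested. Their signals above the blanks summed to 221.0 and 204.6 units on the LSEC arrays, against 26596 and 47779 units on the hepatocyte arrays. Of 8 endothelial markers, 7 were called higher in LSECs and 1 in hepatocytes, with sums of 61396 and 63235 units in LSECs, against 559.6 and 952.2 units in hepatocytes.

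Markers of other cells also differed, to be read against the same shares of 18.6% and 18.4%. All 6 leukocyte and Kupffer cell markers were called higher in the LSEC samples, with sums of 3608 and 4273 units in LSECs, against 47.2 and 60.6 units in hepatocytes. All 5 stellate and mesenchymal markers were called higher there too, with sums of 1613 and 1393 units, against 46.9 and 87.1 units in hepatocytes. Of 4 tested cholangiocyte and epithelial markers 3 were called higher in hepatocytes, with sums of 30.0 and 38.0 units in LSECs, against 60.7 and 120.2 units in hepatocytes. Of 2 tested erythroid markers, 1 was called higher in hepatocytes, with list sums of 81.6 and 88.4 units in LSECs, against 64.9 and 84.5 units in hepatocytes. Below the detection limit on both arrays of a cell type were miR-802-5p in LSECs, miR-155-5p and miR-199a-3p in hepatocytes, and miR-144-5p in both. The part of these cells in the signals of miR-101a or miR-101b-3p on the LSEC arrays was not tested.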

How the data were processed

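The deposited scanner tables give each spot's median intensity at 635 nm with background still in, and per the file headers scans at 3 gains were fitted to each other. The authors' processed intensity values equalled the spot median minus the trimmed blank mean times a constant per array, which put the median listed miRNA at 25, as a check against the scanner tables showed. Normalization software is not given in the sources used here. Here, normexp was run on all spot medians with an offset of 50, the 761 miRNA probes were quantile-normalized on the linear scale, and log2 values were fitted with limma (limma 3.58.1, R 4.3.3). Blank statistics left out 5% of spots at each end. Linear scalings acted before the offset. No scanner quality mark touched a miRNA spot. Sequences were matched by name for 685 of 761 miRNAs, against RefSeq on GRCr8. Named were all members, miRNAs sharing seed letters, label checks, the 5 nearest patterns per 3p strand and marker lists. Members and lists were chosen with earlier results of these data known. An exact permutation test of 2 against 2 arrays cannot go below a 2-sided p = 0.333, so limma's calls draw on a spread pooled over miRNAs. Precision is limited by having 4 arrays.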

Additional observations from a re-analysis of the deposited data

How the results depend on the processing

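Over 20 alternatives, miR-101b-3p kept its direction in all and its call in 19. The exception was subtraction of the deposited background column, at -1.72 (adjusted p = 0.761), where the contrast of miR-101b-3p minus miR-101a-3p was -1.33 (adjusted p = 0.859). That column read 1179 units for miR-101b-3p on hepatocyte array 2, above the spot's own 1155, and it correlated with spot brightness across probes (r = 0.964 to 0.982). In that setting miR-101a-3p lay at -0.40, miR-101a-5p at 0.043, and 21 miRNAs were called. Cyclic loess put miR-101a-3p at -0.016 and miR-101a-5p at 0.17. miR-101a-3p was called without normalization (1.11), with the median (1.03), the 75th percentile (0.48), the spikes (1.83) and in the authors' values (1.09). The miR-101a-5p call ended without normalization (0.23), with the 75th percentile (0.017), without background correction (0.14) and with the replicate block (0.19). The 5p minus 3p contrast of miR-101a reversed to -0.88 without normalization, -0.82 with the median, -0.46 with the 75th percentile and -1.32 with the spikes. Calls numbered 445 with the 75th percentile and 456 with the spikes. The causes were not tested beyond the background values given.

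Leaving out 1 array gave 109 to 234 calls (109 without LSEC array 1, 116 without LSEC array 2). The ranges were -4.25 to -3.88 for miR-101b-3p, 0.066 to 0.17 for miR-101a-3p, 0.15 to 0.25 for miR-101a-5p, -4.42 to -4.03 for the contrast of the 3p strands, and 0.0052 to 0.086 for the arm contrast. Replicates of the cell types shared only a number: their deviations correlated with r = 0.034 over miRNAs. The replicate block left 198 calls and ended no call among the members except that of miR-101a-5p (adjusted p = 0.0865). The 5p strands read 0.80 to 18.5 blank SD above the blanks, which limits what their values can show.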
